A study of Homo sapiens with 16 samples.

Results

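IL33 and IL32 are 2 genes for interleukins, found by symbol among the 55510 symbols counted in 16 RNA-seq libraries of CAL51, a human triple-negative breast cancer cell line. They were chosen by their measured read counts, which moved in opposite directions with time in vehicle and with the dose of CC-671 at 6 h. CC-671 is a small-molecule inhibitor known for its action on the kinases TTK and CLK2. The choice used these same counts, so the levels and differences of both genes are described without a test. The cells, of passage 10, received DMSO, the vehicle, for 6 h (2 libraries) or 24 h (2 libraries), or CC-671 at 3 µM or at 10 µM for 6 h or 24 h (3 libraries in each of the 4 groups). All cells were of this single line, and the submitters describe the replicates of a group as biological. RNA was poly-A selected, and read pairs were counted per gene.

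IL-33 is a cytokine of the IL-1 family that epithelial, endothelial and fibroblastic cells hold in the nucleus, bound to chromatin, and release when they are damaged. It then acts on cells that carry its receptor, which joins ST2 (gene IL1RL1) to IL1RAP and signals through MYD88, the IRAK kinases and TRAF6 to NF-kB. IL-32 is unrelated to the IL-1 family in sequence, is made in many splice forms by lymphocytes and epithelial cells, is itself induced through NF-kB, and can raise other inflammatory cytokines.

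Both genes were matched by symbol to RefSeq start sites on GRCh38.p14. The deposited counts were made on an older build, so these positions serve only to show the sequence. The part of the 250 bases before each start that lies outside annotated exons is printed 5′ to 3′ on the + strand, to set side by side the promoters of genes that moved in opposite directions. Capitals mark the letters TGACGTCA, the full cAMP response element. The IL33 windows are chr9:6214899-6215148 before the start at 6215149 and chr9:6215557-6215785 before the start at 6215807. The IL32 window is chr16:3065153-3065296 before the start at 3065403.
IL33 window 1: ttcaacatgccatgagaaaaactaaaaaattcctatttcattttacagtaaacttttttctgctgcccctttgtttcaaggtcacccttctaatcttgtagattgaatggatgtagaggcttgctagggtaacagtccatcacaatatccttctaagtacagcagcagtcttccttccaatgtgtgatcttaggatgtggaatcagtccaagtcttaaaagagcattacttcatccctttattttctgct
IL33 window 2: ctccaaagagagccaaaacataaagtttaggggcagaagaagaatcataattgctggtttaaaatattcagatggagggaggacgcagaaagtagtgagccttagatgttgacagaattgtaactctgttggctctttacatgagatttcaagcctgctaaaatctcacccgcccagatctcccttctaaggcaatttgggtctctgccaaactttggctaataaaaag
IL32 window 1: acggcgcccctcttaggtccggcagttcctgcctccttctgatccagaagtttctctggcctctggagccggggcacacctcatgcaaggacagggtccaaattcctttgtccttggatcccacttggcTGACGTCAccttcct

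Over the full 250 bases before each start, the IL33 windows had 37.6% and 42.4% G and C bases, and the IL32 window had 60.8%. A second IL32 window, before the start at 3065784, had 57.6% and is not printed because all of it lies in annotated exons. The median over all 35116 RefSeq windows of 250 bases was 58.0%. Each full window of 250 bases was searched on both strands for the NF-kB site, for TGACGTCA, for an AP-1 site (TGANTCA), for the TATA box (TATAAA), for the STAT site GAS (TTCNNNGAA) and for the core of the interferon-stimulated response element. The IL33 windows and the second IL32 window held none of these letters. The first IL32 window held TGACGTCA at 121 to 114 bases before the start, letters present in 1.65% of all windows. The full first window also held the NF-kB site as GGGAGTTTCC at 99 to 90 bases before the start, within an annotated exon of another transcript and so outside the stretch printed above. A second match, GGAGTTTCCC at 98 to 89, overlapped it. The NF-kB site was present in 9.96% of all windows, AP-1 letters in 6.57%, TATAAA in 10.7%, GAS letters in 6.57% and the interferon core in 3.02%. A match describes letters only, and the absence of one says only that these letters are not in the window.

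Between 104609173 and 123789361 read pairs were counted at genes per library. CAL51 cells carried the keratin gene KRT8 at 536 to 700 CPM and the epithelial gene EPCAM at 264 to 371 CPM, where CPM is the count of a gene relative to the read pairs counted at all genes of its library, after TMM scaling of the library sizes. The hormone receptor genes ESR1 and PGR lay below 0.05 CPM, and ERBB2 at 84.7 to 192 CPM. The summed level of 8 leukocyte markers was 6.2 to 13.5 CPM, most of it PTPRC, and the B cell gene MS4A1 and the killer cell gene NKG7 had no count in any library. Expression was measured over all cells of a culture, so fewer cells that express a gene and less RNA per cell cannot be told apart. In the 10 µM, 6 h group, replicate 1 stood apart in cytokine genes. Values with and without it are given for IL33, IL32, IL1A, IL1B, IL6, IL8, RELB and CCL20.

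IL33, in vehicle, was close to 2 times as high at 24 h as at 6 h. At 6 h its count was 1335 and 1132 in the vehicle libraries, or 11.1 and 9.74 CPM (mean 10.4 ± 0.987, SD, n = 2). At 24 h its count was 2418 and 1985, or 21.5 and 19.5 CPM (20.5 ± 1.39, SD, n = 2). Both later libraries lay above both earlier ones. IL32 took the opposite course. Its count was 2043 and 2024 at 6 h, or 17.0 and 17.4 CPM (17.2 ± 0.264, SD, n = 2). At 24 h its count was 932 and 813, or 8.29 and 8.0 CPM (8.15 ± 0.203, SD, n = 2). Both later libraries lay below both earlier ones. On the log2 scale of the edgeR fit to all libraries, IL33 was 0.98 ± 0.10 (SE) higher and IL32 1.08 lower (log2 fold change -1.08 ± 0.06, SE) at 24 h. Groups that do not overlap are common with pairs of libraries, since 30.3% of the 22007 genes tested lay higher in this way and 29.0% lower between the vehicle groups. By size, IL33 ranked 322 from the highest and IL32 302 from the lowest of those 22007 log2 fold changes.

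With CC-671 at 6 h, IL33 was lower at 3 µM and lower again at 10 µM. Its count was 683, 730 and 806 at 3 µM, or 6.12, 6.4 and 7.17 CPM (6.56 ± 0.539, SD, n = 3). At 10 µM its count was 392, 439 and 489, or 3.34, 4.0 and 4.53 CPM (3.96 ± 0.596, SD, n = 3). The 3 groups formed separate steps, with no library of one dose reaching the range of the next. Against vehicle, the log2 fold change was -0.67 ± 0.10 (SE) at 3 µM, where 35.8% of all tested genes lay lower without overlap. It was -1.40 ± 0.10 (SE) at 10 µM, a level 2.65 times lower than in vehicle, where 36.9% of genes lay lower without overlap. Both doses were set against the same vehicle libraries. The step from 3 to 10 µM, which does not use vehicle, was -0.73 ± 0.10 (SE), rank 200 from the lowest of 22007, where 16.4% of genes lay lower without overlap.

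IL32 was higher at each step over the same 3 groups. Its count was 2404, 2495 and 2391 at 3 µM, or 21.6, 21.9 and 21.3 CPM (21.6 ± 0.315, SD, n = 3). At 10 µM its count was 3137, 2764 and 2523, or 26.7, 25.2 and 23.3 CPM (25.1 ± 1.68, SD, n = 3). Every library of a dose lay above every library of the dose below it. The background for such groups, among all genes, was 36.9% at 3 µM, 37.6% at 10 µM and 16.5% from 3 to 10 µM. The log2 fold change against vehicle was 0.32 ± 0.05 (SE) at 3 µM and 0.54 ± 0.05 (SE) at 10 µM, and from 3 to 10 µM it was 0.22 ± 0.05 (SE). Among all genes, 25.6% had a higher log2 fold change than IL32 at 3 µM, 19.4% at 10 µM and 16.7% from 3 to 10 µM. In the 10 µM group, replicate 1 held both the lowest IL33 level and the highest IL32 level. Without it, the 10 µM log2 fold changes were -1.30 ± 0.09 (SE) for IL33 and 0.48 ± 0.05 (SE) for IL32. The share of read pairs outside annotated exons also moved with dose at 6 h, from 4.57% ± 0.267 in vehicle (SD, n = 2) to 5.91% ± 0.381 at 3 µM and 6.65% ± 0.378 at 10 µM (SD, n = 3). At 24 h it was 4.42% ± 0.238 in vehicle (SD, n = 2), 5.8% ± 0.171 at 3 µM and 5.93% ± 0.203 at 10 µM (SD, n = 3). Its part in the levels of IL33 and IL32 was not tested.

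At 24 h, both doses left IL33 somewhat below vehicle and at the same level as each other. Its count was 1806, 1994 and 1812 at 3 µM, or 15.8, 16.9 and 16.1 CPM (16.2 ± 0.561, SD, n = 3). At 10 µM its count was 2157, 1699 and 1870, or 17.2, 15.1 and 16.2 CPM (16.1 ± 1.05, SD, n = 3). All 6 treated libraries lay below both vehicle libraries, and the doses overlapped each other. The log2 fold change against vehicle was -0.34 ± 0.09 (SE) at 3 µM, where 38.3% of genes lay lower without overlap, and -0.35 ± 0.09 (SE) at 10 µM, where 39.0% did. Between the doses it was -0.01 ± 0.08 (SE). With library totals in place of TMM scaling, which moved the median of all genes to 0.102 at 3 µM and 0.116 at 10 µM, both IL33 values were -0.24.

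IL32 at 24 h stood near its vehicle level in every treated library. Its count was 851, 838 and 906 at 3 µM, or 7.43, 7.09 and 8.06 CPM (7.52 ± 0.494, SD, n = 3). At 10 µM its count was 883, 876 and 846, or 7.02, 7.76 and 7.31 CPM (7.36 ± 0.373, SD, n = 3). The 3 µM libraries overlapped vehicle, whereas those of 10 µM lay just below it after TMM scaling. Of all genes, 39.0% lay lower without overlap at 10 µM. With library totals the 10 µM libraries overlapped vehicle too, at 7.36, 8.16 and 7.62 CPM against 8.04 and 7.77 CPM. The log2 fold change was -0.12 ± 0.06 (SE) at 3 µM and -0.15 ± 0.06 (SE) at 10 µM, and -0.02 and -0.04 with library totals in place of TMM scaling. Between the doses it was -0.03 ± 0.06 (SE), with groups that overlapped.

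**Figure D1:**
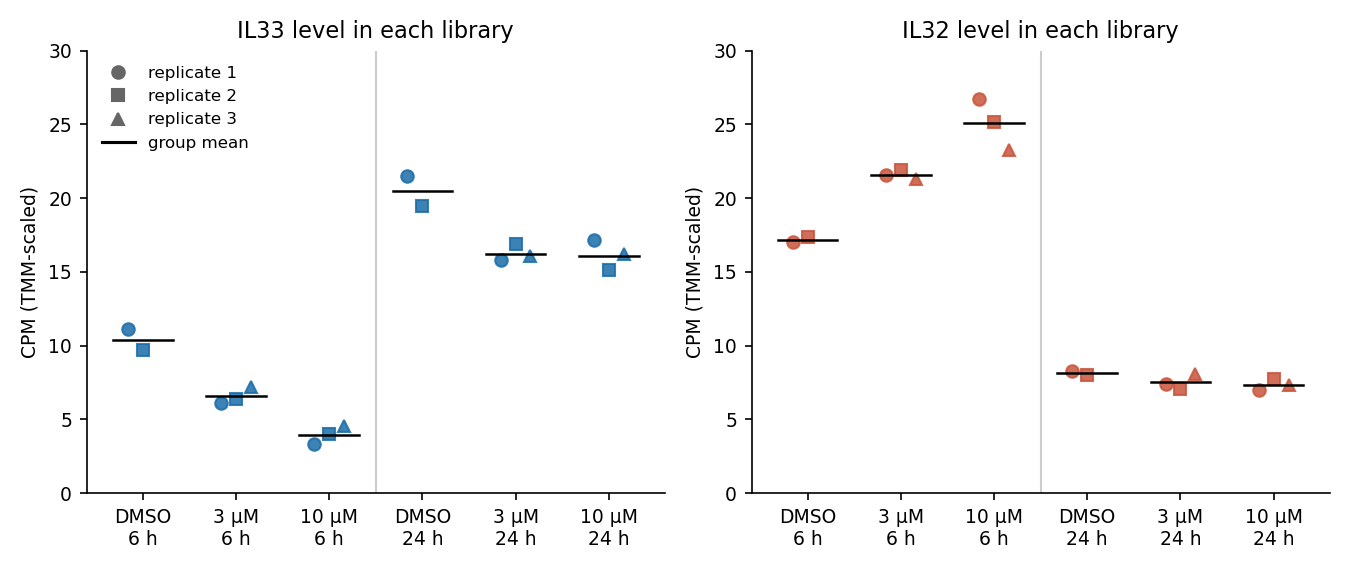
Level of IL33 (left) and of IL32 (right) in each of the 16 libraries, in CPM after TMM scaling, with 1 point per library, shapes for replicate numbers and a bar for the group mean. At 6 h IL33 steps down and IL32 steps up with dose, whereas at 24 h the doses overlap each other.

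The order of the groups was not the same for the 2 genes. IL33 ran from vehicle at 24 h through 3 µM and 10 µM at 24 h, which overlapped, to vehicle at 6 h, 3 µM at 6 h and 10 µM at 6 h. IL32 ran from 10 µM at 6 h through 3 µM and vehicle at 6 h to the 3 groups at 24 h, of which neighbours in the order overlapped. Within a group the SD of IL33 was 3.45 to 15.1% of the mean, and that of IL32 1.46 to 6.7%. For both genes, the widest relative spread was in the 10 µM, 6 h group.

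**Figure D2:**
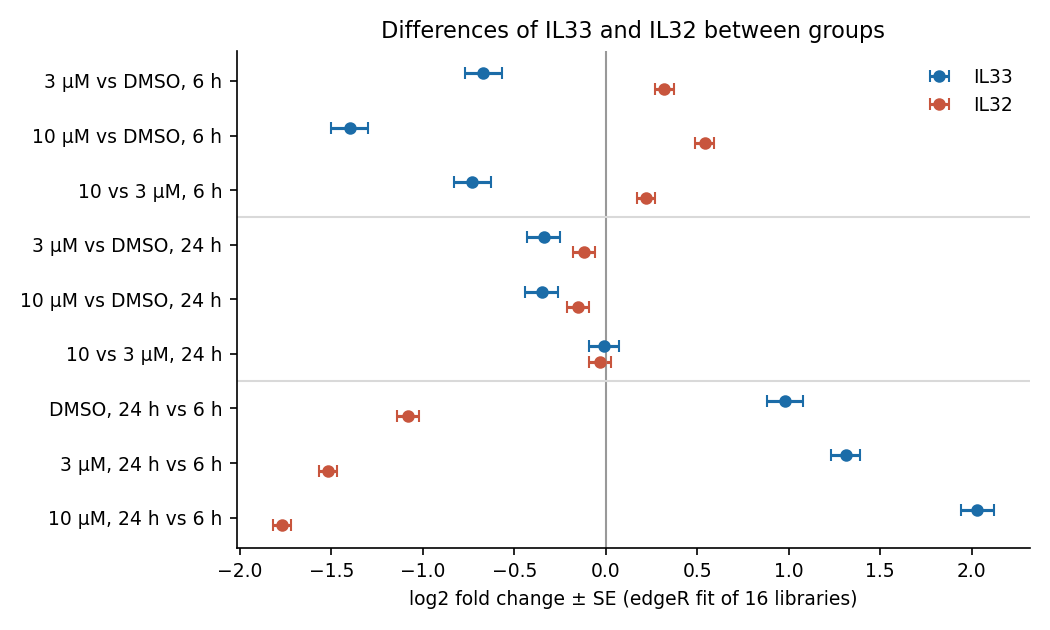
log2 fold change of IL33 (blue) and IL32 (red) in 9 comparisons of groups, with bars for 1 SE from the edgeR fit to all 16 libraries. The genes lie on opposite sides of 0 in the 3 comparisons at 6 h and in the 3 comparisons over time. At 24 h both lie below 0 against vehicle, IL32 only slightly, and between doses both lie within 1 SE of 0.

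The difference between times was wider in treated than in vehicle cultures for both genes. At 3 µM, IL33 was higher at 24 h than at 6 h by 1.31 ± 0.08 (SE, log2) and at 10 µM by 2.03 ± 0.09, a 4.09-fold difference. With the difference in vehicle subtracted, the effect of CC-671 on IL33 differed between 24 h and 6 h by 0.33 ± 0.13 at 3 µM and by 1.06 ± 0.13 at 10 µM (SE, log2). IL32 differed between times by -1.52 ± 0.05 at 3 µM and -1.77 ± 0.05 at 10 µM (SE, log2). Its drug effect differed between times by -0.44 ± 0.08 at 3 µM and -0.69 ± 0.08 at 10 µM (SE, log2). Over all genes, this difference between times passed the edgeR test for 49.3% at 3 µM and 54.0% at 10 µM. Neither gene's groups overlapped between times at either dose. Among all genes, 36.1% lay higher and 34.0% lower in this way at 3 µM, and 36.8% higher and 36.0% lower at 10 µM.

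The ratio of IL32 to IL33 inside a library does not depend on scaling. Per kilobase of exon, it compares 3209 exon bases of IL32 with 3253 of IL33, taken from GENCODE 29, which was not the authors' annotation. At 6 h the ratio per kilobase was 1.55 and 1.81 in vehicle, 3.57, 3.46 and 3.01 at 3 µM, and 8.11, 6.38 and 5.23 at 10 µM. It was higher at each dose, and the 3 groups did not overlap. At 24 h it was 0.391 and 0.415 in vehicle, 0.478, 0.426 and 0.507 at 3 µM, and 0.415, 0.523 and 0.459 at 10 µM. IL32 was thus the higher of the pair in all 8 libraries at 6 h, and IL33 in all 8 at 24 h. The group means were 1.68 ± 0.185, 3.35 ± 0.298 and 6.57 ± 1.45 at 6 h, and 0.403 ± 0.0173, 0.47 ± 0.0409 and 0.465 ± 0.0542 at 24 h (SD, n = 2, 3 and 3). On this length scale, IL33 went from 1.22 ± 0.183 CPM per kilobase at 10 µM, 6 h (SD, n = 3) to 6.31 ± 0.428 in vehicle at 24 h (SD, n = 2). IL32 went from 2.29 ± 0.116 at 10 µM, 24 h to 7.82 ± 0.524 at 10 µM, 6 h (SD, n = 3).

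**Figure D3:**
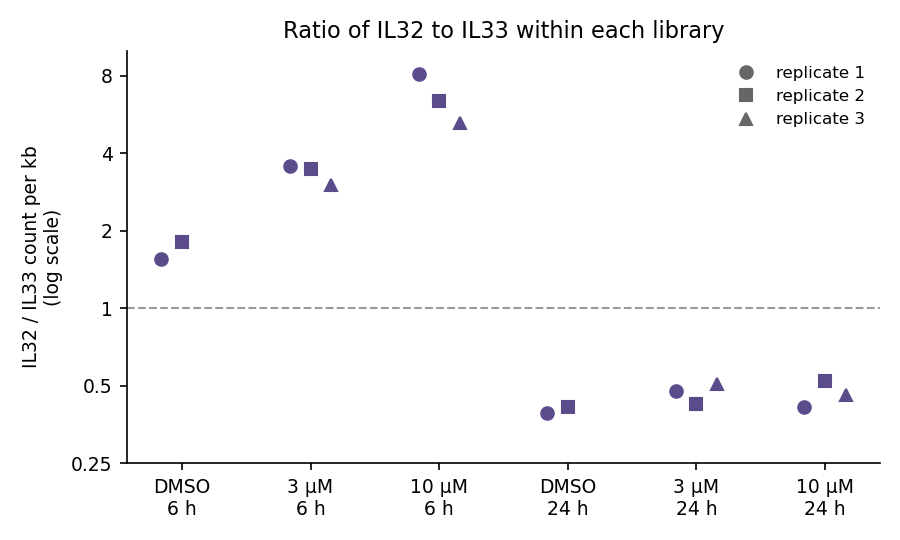
Ratio of IL32 to IL33 in each library, as counts per kilobase of exon on a log axis, with the dashed line at 1 where both are equal. All 8 libraries at 6 h lie above the line, rising with dose, and all 8 at 24 h lie below it.

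Few other annotated genes overlapped either gene. No annotated gene overlapped IL33. IL32 overlapped RNU1-125P on its own strand, whose exons meet those of IL32, and which had no count in any library. A read pair lying on both genes can be counted for neither, and the counter's overlap setting is not given. The lack of a count at RNU1-125P therefore does not show where such pairs went. IL32 also overlapped the antisense long non-coding gene AC108134.3, whose exons do not meet those of IL32. GENCODE 29 lists 5 transcripts of IL33 and 35 of IL32, and the counts do not separate them. The nearest coding genes were followed on each side, BICDL2 beside IL32 not being matched to a symbol. Beside IL33, UHRF2, a ubiquitin ligase gene, rose at 6 h by 0.58 ± 0.04 at 3 µM and 0.69 ± 0.04 at 10 µM (SE, log2; adjusted p = 5.72e-14 and 8.54e-16, edgeR's quasi-likelihood test with Benjamini-Hochberg adjustment). RANBP6, an importin family gene, rose by 0.11 ± 0.04 and 0.20 ± 0.04 (adjusted p = 0.00889 and 1.8e-05, the same edgeR test). MLANA had at most 2 counts in a library. TPD52L3 ranged from 0.0 to 0.146 CPM over the libraries, too close to 0 for a test of it to be read. Beside IL32, ZNF205 fell by 0.28 and 0.27 at 6 h (SE 0.05 for both; edgeR adjusted p = 6.21e-06 and 6.43e-06). MMP25, a membrane protease gene, had log2 fold changes of 0.51 ± 0.25 and 0.46 ± 0.26 (SE; edgeR adjusted p = 0.0829 and 0.113), and ZSCAN10 had at most 9 counts.

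The genes around both cytokines were followed in 6 lists, tested by edgeR over all 22007 genes of a comparison with an adjusted p under 0.05. Of the IL-33 receptor, ST2, almost nothing was counted. IL1RL1 had a total of 11 read pairs over the 16 libraries and at most 3 in any, where a count of 0 allows up to 0.0239 to 0.0295 CPM (3 counts; counting error only). Its partner IL1RAP was present at 38.7 ± 1.06 CPM in vehicle at 6 h (SD, n = 2). It fell by 0.28 at 3 µM and 0.24 at 10 µM at 6 h (SE 0.04 for both; edgeR adjusted p = 5.49e-07 and 7.99e-06). At 24 h its log2 fold changes were -0.08 ± 0.04 and 0.02 ± 0.04 (edgeR adjusted p = 0.109 and 0.704).

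In the IL-33 receptor and signalling list, 13 of 14 genes could be tested. At 3 µM and 6 h, 5 rose and 5 fell (median log2 fold change -0.03), where 31.6% of all genes rose, 31.6% fell and their median was 0.02. At 10 µM and 6 h, 4 rose and 4 fell (median -0.01), where 34.0% of all genes rose, 33.6% fell and their median was 0.01. The genes that fell furthest were TAB1, TAB3 and IRAK4. TAB1, which binds and activates the kinase TAK1, went from 39.4 ± 0.647 CPM in vehicle (SD, n = 2) to 20.6 ± 0.589 and 18.8 ± 0.263 CPM at 3 and 10 µM (SD, n = 3; log2 fold change -0.93 and -1.07, edgeR adjusted p = 1.72e-18 and 6.11e-20). IRAK4, the first kinase recruited by MYD88, stood at 8.79 ± 0.446 and 7.43 ± 0.269 CPM (SD, n = 3), with log2 fold changes of -0.77 and -1.02 against vehicle (SE 0.05 for both; edgeR adjusted p = 8.57e-14 and 2e-16). TRAF6, the ubiquitin ligase of the pathway, rose by 0.49 ± 0.05 and 0.61 ± 0.05 (SE, log2; edgeR adjusted p = 1.7e-10 and 1.48e-12), and MAP3K7, which encodes TAK1, by 0.41 ± 0.03 and 0.45 ± 0.03 (edgeR adjusted p = 1.29e-11 and 1.98e-12).

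At 24 h, 5 of the 13 signalling genes rose and 4 fell at 3 µM (median -0.04), where 29.7% of all genes rose, 30.9% fell and their median was 0.00. At 10 µM, 6 rose and 5 fell (median 0.02), where 31.3% of all genes rose, 32.3% fell and their median was 0.01. Without replicate 1 of vehicle at 24 h, 4 rose and 3 fell at 10 µM. IRAK4 was now above vehicle, by 0.28 ± 0.05 and 0.41 ± 0.05 (SE, log2; edgeR adjusted p = 9.92e-06 and 1.86e-08). TOLLIP, an inhibitor of this pathway, rose by 0.44 ± 0.04 and 0.57 ± 0.04 (edgeR adjusted p = 3.78e-11 and 1.46e-13). MYD88, the adaptor, fell by 0.23 and 0.21 (SE 0.04 for both; edgeR adjusted p = 2.11e-05 and 9.39e-05). All-gene counts at 24 h leaned with scaling: 48.9% of the changed genes were higher at 3 µM and 49.2% at 10 µM, against 62.9% and 62.3% with library totals in place of TMM.

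**Figure D4:**
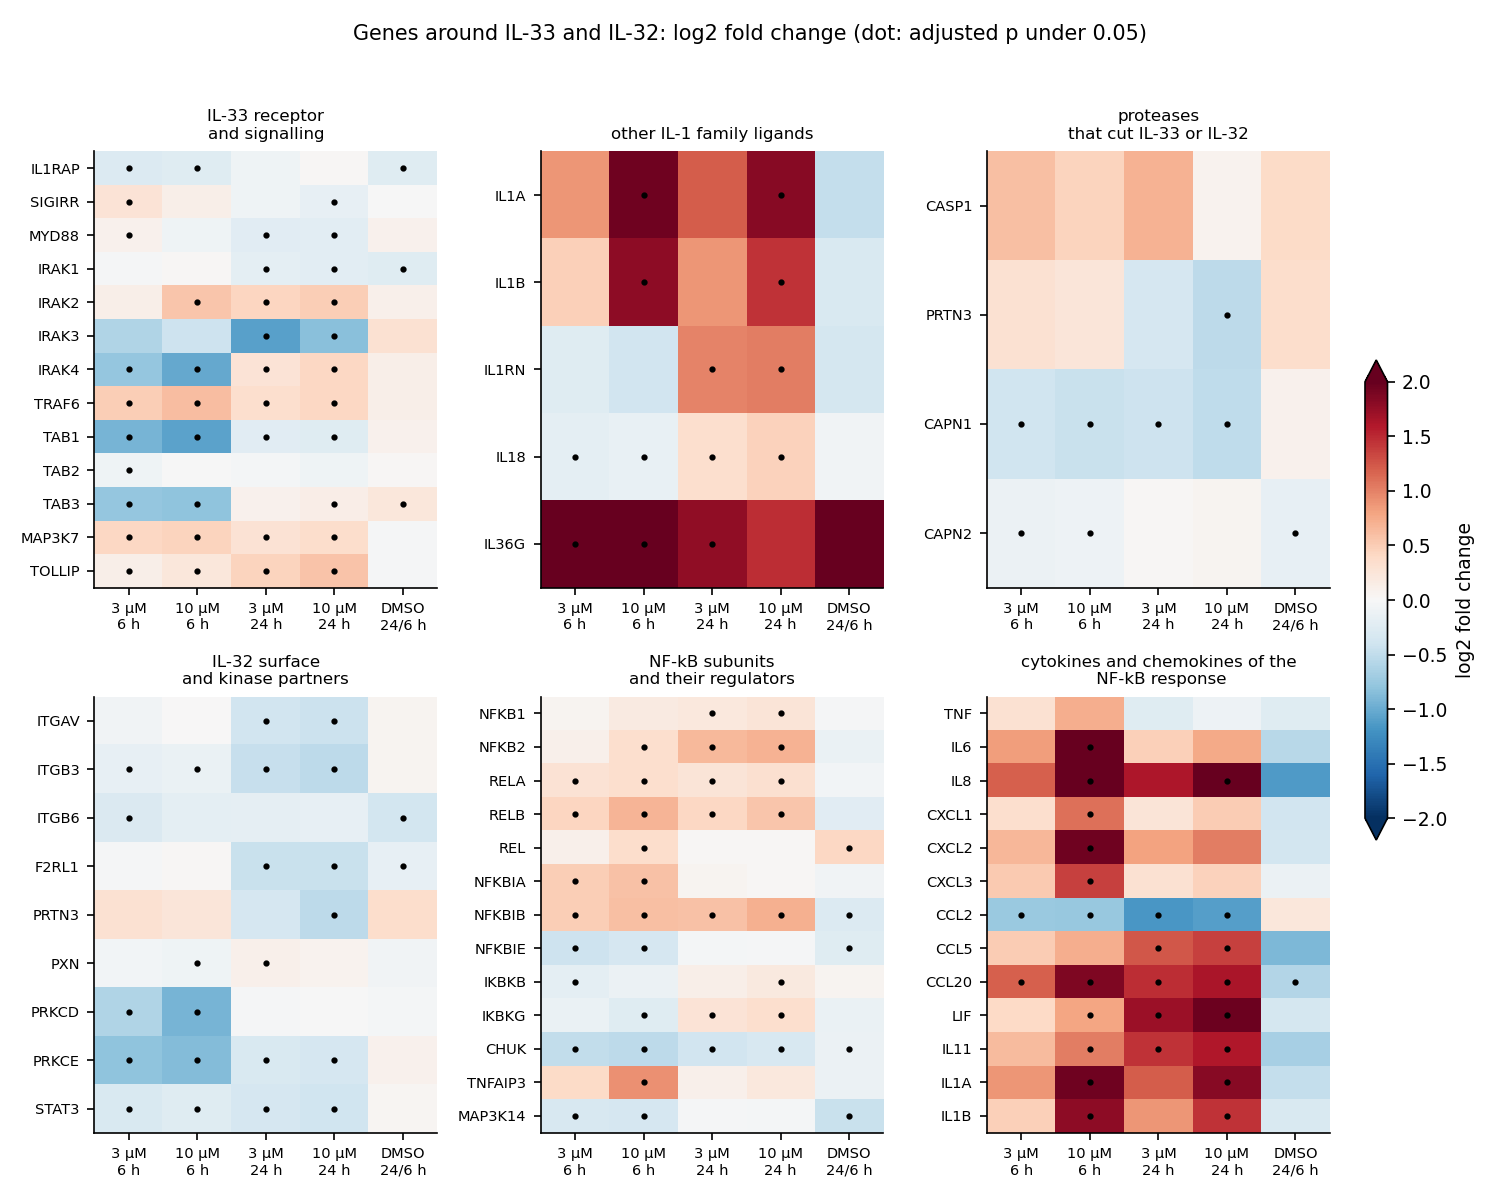
log2 fold change of the tested genes of 6 lists in the 4 comparisons of CC-671 with vehicle and in vehicle at 24 h against 6 h, in colour from -2 to 2 (values beyond take the end colour), with a dot where the edgeR adjusted p is under 0.05. Lower colours at 6 h gather in TAB1, TAB3, IRAK4, PRKCD and PRKCE, and higher colours in the cytokine list at 10 µM.

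Other ligands of the IL-1 family were at low levels, apart from IL18, and 5 of 10 could be tested. At 6 h, 1 rose and 1 fell at 3 µM, and 3 rose and 1 fell at 10 µM. At 24 h, 3 rose at 3 µM and 4 at 10 µM, of which 2 passed without replicate 2 of vehicle. The gene that rose at 3 µM and 6 h was IL36G, which was also counted at 10 µM, 6 h and at 3 µM, 24 h. It reached a count of 10, the minimum of the filter, only in treated libraries at 6 h. Its calls are therefore fixed in part by the filter and are not read as results. Among all genes, 31.6% rose and 31.6% fell at 3 µM at 6 h, 34.0% and 33.6% at 10 µM at 6 h, 29.7% and 30.9% at 3 µM at 24 h, and 31.3% and 32.3% at 10 µM at 24 h. IL18, the abundant member, was at 26.3 ± 0.432 CPM in vehicle at 6 h (SD, n = 2). It fell by 0.19 ± 0.05 at 3 µM and by 0.15 ± 0.05 at 10 µM at 6 h (SE, log2; edgeR adjusted p = 0.00132 and 0.00666). The 10 µM call was lost without vehicle replicate 2 (adjusted p = 0.0542) and with a stricter filter (0.0545). At 24 h it rose by 0.34 ± 0.05 and 0.46 ± 0.05 (edgeR adjusted p = 6.46e-07 and 3.05e-09). The genes that rose at 10 µM and 6 h were IL1A, IL1B and IL36G, named after their values were seen. IL1A, an alarmin like IL33, was at 0.317 and 0.241 CPM in vehicle and 1.79, 0.848 and 0.583 CPM at 10 µM, with replicate 1 highest and groups that did not overlap. Its log2 fold change was 1.95 ± 0.46 (SE; edgeR adjusted p = 0.00249), and 1.34 ± 0.25 without that library (adjusted p = 3.34e-05). Among all genes, 37.6% lay higher without overlap in this comparison. IL1B, a secreted ligand, was at 0.0751 and 0.0516 CPM in vehicle and 0.341, 0.155 and 0.167 CPM at 10 µM, again with replicate 1 highest. Its log2 fold change was 1.79 ± 0.42 (SE; edgeR adjusted p = 0.000484), and 1.31 ± 0.43 without that library (adjusted p = 0.00896). IL36G had no count in vehicle at 6 h and 16 to 19 counts at 10 µM, at least 6.1-fold higher than the group's limit of 3 counts per library. The median log2 fold change of the list was 0.48 and 1.79 at 6 h, also with IL36G at that bound, and 0.99 and 1.44 at 24 h.

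Of 8 proteases that cut IL-33 or IL-32, 4 could be tested. The granule proteases CTSG and CMA1 had no count in any library. None of the 4 rose by the edgeR test in any comparison with vehicle, where 29.7% to 34.0% of all genes rose. At 6 h, 2 fell at each dose (medians 0.09 and 0.07), of which 1 fell at 10 µM without replicate 2 of vehicle. At 24 h, 1 fell at 3 µM and 2 at 10 µM (medians -0.15 and -0.23). At 10 µM, 1 fell without replicate 1 of vehicle or without any one of the 3 treated libraries. With library totals in place of TMM, 1 was higher and 1 lower at each dose at 24 h. The share of all genes that fell was 31.6% and 33.6% at 6 h and 30.9% and 32.3% at 24 h, so that 1 or 2 of 4 is near the background. CAPN2, a calpain, fell at 6 h by 0.12 and 0.10 (SE 0.03 for both; edgeR adjusted p = 0.000664 and 0.00382). CAPN1, another calpain, fell in all 4 comparisons, by 0.40 and 0.44 at 6 h and 0.42 and 0.51 at 24 h (SE 0.03; edgeR adjusted p of at most 2.23e-12). In vehicle it stood at 186 ± 2.09 CPM at 6 h and 197 ± 1.2 CPM at 24 h (SD, n = 2), and at 10 µM it stood at 137 ± 3.22 and 139 ± 1.86 CPM (SD, n = 3).

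Among the surface and kinase partners of IL-32, 9 of 10 could be tested. None rose at 6 h, and 5 fell at each dose (medians -0.17 and -0.13), of which 3 fell at 10 µM without replicate 2 of vehicle. PRKCE and PRKCD, protein kinases C described as binding IL-32 inside the cell, fell furthest. PRKCD went from 29.1 ± 0.207 CPM in vehicle (SD, n = 2) to 19.3 ± 0.841 and 15.3 ± 0.848 CPM at 3 and 10 µM (SD, n = 3; log2 fold change -0.60 and -0.93, edgeR adjusted p = 2.83e-12 and 1.55e-16). At 24 h its log2 fold changes were -0.03 ± 0.04 and -0.01 ± 0.04 (SE). At 24 h, 1 rose and 5 fell at 3 µM, and 6 fell at 10 µM (medians -0.33 and -0.40). Over all genes, 31.6% and 33.6% fell at 3 and 10 µM at 6 h, and 30.9% and 32.3% at 24 h. The shares that rose were 31.6% and 34.0% at 6 h, and 29.7% and 31.3% at 24 h. The integrin genes ITGAV and ITGB3, whose product binds IL-32, fell by 0.39 and 0.46 at 3 µM and by 0.43 and 0.52 at 10 µM (SE 0.04; edgeR adjusted p = 1.03e-09, 1.74e-11, 9.72e-11 and 1.03e-12).

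NF-kB subunits and regulators could all be tested, 13 of 13. At 6 h, 4 rose and 4 fell at 3 µM, and 7 rose and 4 fell at 10 µM (medians 0.10 and 0.34). At 24 h, 6 rose and 1 fell at 3 µM, and 7 rose and 1 fell at 10 µM (medians 0.11 and 0.21). Of all genes, 31.6% rose and 31.6% fell at 3 µM at 6 h, so that 4 of 13 each way is near the background. The share of all genes that rose was 34.0% at 10 µM at 6 h, and 29.7% and 31.3% at 24 h. The share that fell was 33.6%, 30.9% and 32.3% in the same order, so that 4 of 13 lower at 10 µM and 6 h is also near the background. NFKBIA, the inhibitor that NF-kB itself induces, rose at 6 h from 96.2 ± 0.3 CPM in vehicle (SD, n = 2) to 135 ± 4.05 and 144 ± 9.2 CPM (SD, n = 3; edgeR adjusted p = 1.05e-11 and 2.01e-13). At 24 h its log2 fold changes were 0.05 ± 0.04 and 0.03 ± 0.04 (SE; edgeR adjusted p = 0.313 and 0.506). The subunit gene RELB rose in all 4 comparisons, by 0.43 ± 0.09 and 0.68 ± 0.09 at 6 h and by 0.41 ± 0.10 and 0.55 ± 0.10 at 24 h (SE, log2; edgeR adjusted p = 0.00115, 1.93e-05, 0.00243 and 0.000215). At 10 µM and 6 h its rise was 0.54 ± 0.05 (SE) without replicate 1 of that group. CHUK, a kinase gene of the pathway, fell in all 4, by 0.49 and 0.52 at 6 h and by 0.38 and 0.32 at 24 h (SE 0.03; edgeR adjusted p of at most 3.7e-09).

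In the list of cytokines and chemokines of the NF-kB response, 13 of 16 genes could be tested. At 6 h, 1 rose and 1 fell at 3 µM, and 10 rose and 1 fell at 10 µM (medians 0.52 and 1.37). At 24 h, 4 rose and 1 fell at 3 µM, and 7 rose and 1 fell at 10 µM (medians 0.88 and 1.37). The share of all genes that rose was 31.6% and 34.0% at 6 h, and 29.7% and 31.3% at 24 h. The share that fell was 31.6% and 33.6% at 6 h, and 30.9% and 32.3% at 24 h. The list's counts moved with the libraries and genes fitted. Fitted to only the groups compared, 8 rose at 3 µM and 2 at 10 µM at 6 h, and 10 rose at 3 µM at 24 h. Without vehicle replicate 2 at 6 h, 3 rose at 3 µM. At 24 h, 2 rose at 3 µM without vehicle replicate 1, and 4 at 10 µM without vehicle replicate 2. CCL20, a chemokine, rose in all 4 comparisons, from 21.5 ± 2.49 CPM in vehicle at 6 h (SD, n = 2) to 49.4 ± 1.03 and 77.8 ± 16.6 CPM (SD, n = 3; edgeR adjusted p = 4.51e-05 and 9.69e-07). Its log2 fold change at 10 µM and 6 h was 1.86 ± 0.16 (SE), and 1.70 ± 0.13 without replicate 1 of that group. CCL2, another chemokine, fell in all 4, by 0.74 and 0.76 at 6 h and 1.17 and 1.10 at 24 h (SE 0.14; edgeR adjusted p of at most 4.48e-05).

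IL6 and IL8 (now CXCL8), which IL-32 is known to raise, were followed in every library. IL8 was at 3.47 and 3.83 CPM in vehicle at 6 h, 10.3, 7.38 and 7.3 CPM at 3 µM, and 86.6, 15.9 and 15.4 CPM at 10 µM. The 10 µM replicate 1 lay far above its group, and the 3 groups did not overlap. Among all genes, 36.9% lay higher without overlap at 3 µM against vehicle, 37.6% at 10 µM and 16.5% from 3 to 10 µM. The log2 fold change of IL8 at 10 µM was 3.43 ± 0.79 (SE; edgeR adjusted p = 0.00253), and 2.09 ± 0.21 without replicate 1 (adjusted p = 5.94e-06). At 3 µM it was 1.19 ± 0.83 (edgeR adjusted p = 0.238). IL6 was at 1.32 and 1.07 CPM in vehicle, 2.06, 2.32 and 1.98 at 3 µM, and 11.4, 4.01 and 3.0 at 10 µM, again with replicate 1 highest. Its log2 fold change was 2.37 ± 0.53 at 10 µM (SE; edgeR adjusted p = 0.00222), 1.54 ± 0.14 without that library, and 0.83 ± 0.58 at 3 µM (adjusted p = 0.245). Fitted to only the groups compared, neither passed at 10 µM (adjusted p = 0.111 for IL8 and 0.109 for IL6), while both passed at 3 µM (adjusted p = 0.0037 and 4.49e-06). Without replicate 1, 9 of the 13 cytokine genes rose and 1 fell at 10 µM and 6 h. At 24 h, IL8 was at 1.66 and 1.67 CPM in vehicle, 4.9, 4.87 and 5.6 at 3 µM, and 8.98, 11.9 and 8.28 at 10 µM. The log2 fold change at 10 µM was 2.54 ± 0.96 (SE; edgeR adjusted p = 0.0391), a call lost when any one of the 5 libraries was left out (adjusted p = 0.052 to 0.147). IL6 at 24 h was 0.747 and 0.876 CPM in vehicle and 1.25 to 1.52 CPM at 10 µM (edgeR adjusted p = 0.359). Fitted to only the groups compared, it passed at 10 µM, with a log2 fold change of 0.77 ± 0.14 (SE; edgeR adjusted p = 4.3e-06), and at 3 µM, with 0.50 ± 0.14 (SE; adjusted p = 0.0036).

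The same lists were read in vehicle, where IL33 was higher and IL32 lower at 24 h than at 6 h. Of the 13 signalling genes, 1 rose and 2 fell, where 11.0% of all genes rose and 9.55% fell. Those that fell were IRAK1, by 0.25 (SE 0.03), and IL1RAP, by 0.24 (SE 0.04; edgeR adjusted p = 2.46e-06 and 0.000184). Of the 5 other IL-1 family ligands tested, none changed. Of the 4 proteases tested, CAPN2 alone passed, lower by 0.16 (SE 0.03; edgeR adjusted p = 0.000506). Of the 13 NF-kB genes, 1 rose and 4 fell. MAP3K14, the kinase of the non-canonical NF-kB route, fell by 0.45 (SE 0.04; edgeR adjusted p = 3.48e-08). NFKBIB fell from 32.3 ± 0.0849 to 26.6 ± 0.0378 CPM (SD, n = 2; edgeR adjusted p = 0.000108). Of the 9 IL-32 partners, 2 fell and none rose, by the adjusted edgeR test. None fell without replicate 2 of vehicle at 6 h, or without either vehicle library at 24 h. With every library, 2 of the 9 were under 0.05 by unadjusted p. Of the 13 cytokine genes, CCL20 alone passed, from 21.5 ± 2.49 to 14.4 ± 0.666 CPM (SD, n = 2; edgeR adjusted p = 0.0497). It did not pass when any one of the 4 vehicle libraries was left out (adjusted p of up to 0.229). The count over all genes was 4522 with every library, and 2604 to 3579 with 1 vehicle library left out.

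The summed levels of fibroblast, endothelial and leukocyte markers moved with IL33 in part, whereas most leukocyte markers tested did not fall with CC-671. The fibroblast list of 7 genes summed to 82.3 to 88.7 CPM in vehicle at 6 h and 112 to 113 CPM at 24 h. Of these genes, 5 of 5 tested rose with time in vehicle, where 11.0% of all genes rose. With CC-671 the fibroblast list summed to 78.9 to 80.8 CPM at 3 µM and 78.0 to 81.9 CPM at 10 µM at 6 h, and to 58.9 to 66.8 and 55.4 to 57.1 CPM at 24 h. At 6 h, 2 rose and 1 fell at 3 µM, and 2 rose and 2 fell at 10 µM. Of all genes, 31.6% rose and 31.6% fell at 3 µM, and 34.0% rose and 33.6% fell at 10 µM. At 24 h all 5 fell at each dose, where 30.9% and 32.3% of all genes fell. The defining genes DCN and FAP were at most 0.0255 CPM in every library, and PDGFRB, at 30.9 to 72.0 CPM, made up most of the sum. Endothelial markers summed to 12.4 to 13.3 CPM in vehicle at 6 h, 19.2 to 19.6 CPM at 24 h and 8.46 to 12.3 CPM with CC-671, mostly CDH5. Of 3 tested, 1 rose with time in vehicle. Against vehicle none rose, while 1 fell at 3 µM and 2 at 10 µM at 6 h, and 2 and 3 fell at 24 h. Leukocyte markers summed to 10.2 to 10.4 CPM in vehicle at 6 h and 12.6 to 13.5 CPM at 24 h. With CC-671 they summed to 11.5 to 12.7 CPM at 6 h and 6.2 to 7.61 CPM at 24 h. Of 4 leukocyte markers tested, 1 rose with time in vehicle. At 6 h, 3 rose and 0 fell at 3 µM, and 3 rose and 1 fell at 10 µM. At 24 h, 3 rose and 1 fell at 3 µM, and 2 rose and 1 fell at 10 µM, where 29.7% and 31.3% of all genes rose. The part of any of these markers in the level of IL33 was not tested.

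Among 11690 genes averaging at least 1 on the log2 CPM scale, those whose log2 CPM followed IL33 most closely over the 16 libraries were STIM1, ETV1, SH3RF3, TLR5 and KDM1A, with Pearson r of 0.987, 0.986, 0.986, 0.984 and 0.982. For IL32 they were HMGA1, GPC1, ANXA2, CXCL16 and FKBP11, with r of 0.991, 0.989, 0.986, 0.984 and 0.984. These values describe the libraries, which fall into 6 h and 24 h sets and dose steps that all genes share, and so carry no test. The amplitude of these genes was smaller than that of IL33 and IL32. TLR5, a receptor for bacterial flagellin that also signals through MYD88, went from 5.67 ± 0.136 CPM in vehicle at 6 h (SD, n = 2) to 2.92 ± 0.351 at 10 µM (SD, n = 3), and stood at 7.81 ± 0.115 in vehicle at 24 h (SD, n = 2). STIM1, the calcium sensor of the endoplasmic reticulum, had log2 fold changes of -0.22 and -0.41 at 6 h and 0.31 over time in vehicle. HMGA1, a chromatin protein gene, had log2 fold changes of 0.10 and 0.15 at 6 h and -0.33 over time in vehicle, where IL32 had 0.32, 0.54 and -1.08.

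**Figure D5:**
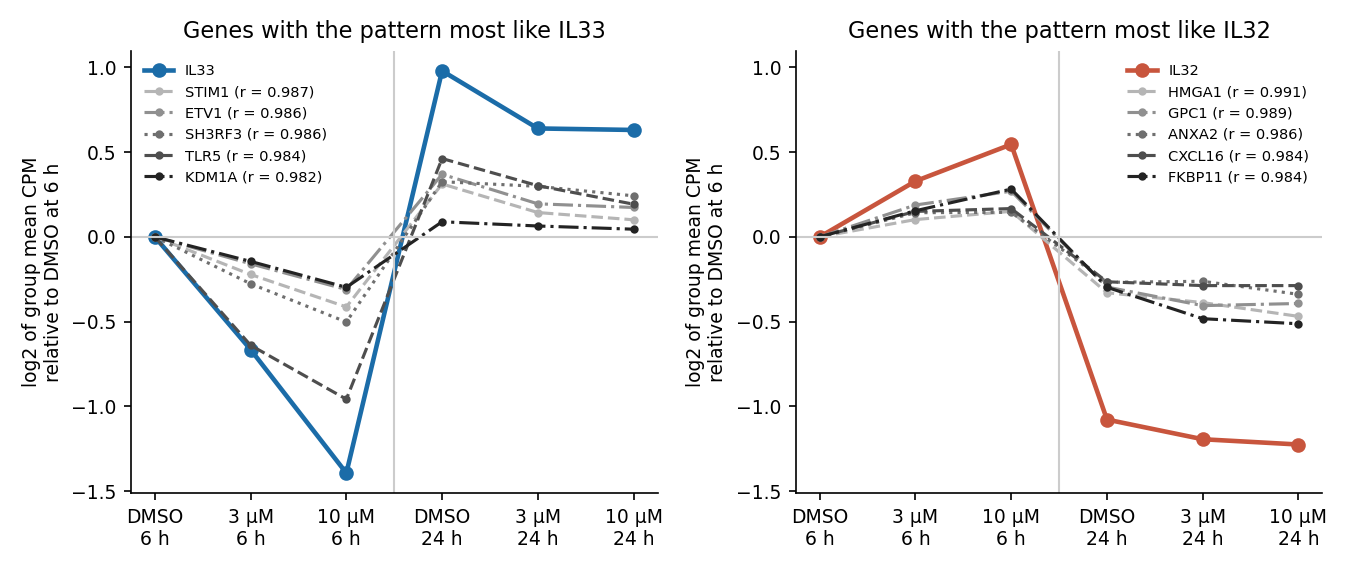
Log2 of the group mean CPM relative to vehicle at 6 h for IL33 with its 5 most similar genes (left) and for IL32 with its 5 most similar genes (right), over the 6 groups. The genes share the direction of IL33 or IL32 at 6 h and over time in vehicle, with smaller differences.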

How the data were processed

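The data are 16 RNA-seq libraries from CAL51 cells given DMSO or CC-671. Per the labels' protocols, poly-A RNA was made into strand-specific libraries and sequenced in pairs. For each library the authors deposited raw counts, 1 per gene symbol. Per the submitters' processing notes, HTSeq, STAR and edgeR were used with the build hg19 (GRCh37), with versions, strand setting and annotation not given in the sources used here. Non-gene entries of the counter, 16.9 to 20.2% of pairs, entered neither the library sizes nor the tests.

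The filterByExpr function (edgeR 4.0.16), with a count minimum of 10 and a total of 15, left 22007 genes. After TMM scaling, a robust quasi-likelihood model with a mean for each of the 6 groups was fitted in R 4.3.3. Its two-sided F test was adjusted by Benjamini-Hochberg across every gene tested in a comparison, and an adjusted p below 0.05 was called a change. The SE is the absolute log2 fold change over the square root of F. CPM is the count over the scaled library size. The fit was tested on simulated counts.

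The members and the 6 gene lists were chosen with earlier results of these data known. List genes were named by rule: up to 4 changed members of largest absolute log2 fold change with average log2 CPM of at least 0, those that moved against the majority of their list, and IL1RL1, IL1RAP, IL6 and IL8 throughout. Comparisons of treated groups over time were added later as descriptions. All 68 list genes matched a symbol, 1 by an older one, and some genes of the protease list are not reported here. The labels gave each sample's group, and all samples were used. Alternatives were RLE factors, library totals, DESeq2 1.42.0, no filter, a stricter filter (1 CPM in 5 libraries), only the groups compared, the replicate number as a block, and leaving out each library.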

Additional observations from a re-analysis of the deposited data

Results flagged for a closer look

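The effect of CC-671 against vehicle differed between 24 h and 6 h by over 1.5-fold in several genes around IL-33 and IL-32, tested by an interaction in edgeR with Benjamini-Hochberg adjustment over all genes, where 49.3% of all genes passed at 3 µM and 54.0% at 10 µM. TAB1 differed by 0.72 at 3 µM and 0.82 at 10 µM (log2; adjusted p = 3.69e-12 and 1.34e-13), IRAK4 by 1.05 and 1.42 (6.7e-13 and 9.01e-16), and TAB3 by 0.84 and 0.94 (4.71e-12 and 2.99e-13). At 10 µM, PRKCD differed by 0.92 (adjusted p = 1.36e-12) and IL18 by 0.61 (1.24e-08). LIF, a cytokine of the IL-6 family, differed by 1.31 at 3 µM and 1.16 at 10 µM (adjusted p = 0.00149 and 0.00268). After TMM scaling, every 10 µM library lay above vehicle in IL32 at 6 h and below it at 24 h. Among all genes, 37.6% lay higher without overlap at 6 h and 39.0% lower at 24 h. The effect of 10 µM on IL32 differed between times by -0.69, which was not tested, since the gene was chosen on these values. With library totals in place of TMM, the 24 h log2 fold change was -0.04 and 1 of the 3 libraries lay above both vehicle libraries. Of 78 such differences among the 39 listed genes named, 39 smaller ones also passed.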

How the results depend on the processing

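Of 290 values of IL33 and IL32, those not mentioned here moved by less than 1 SD, and the differences between doses at 24 h ranged over 0 with 1 library left out (IL33 -0.06 to 0.03, IL32 -0.07 to 0.02). With library totals, the IL32 log2 fold change was 0.35 at 3 µM, 6 h, -0.02 and -0.04 at 3 and 10 µM, 24 h, and -1.44 and -1.67 between times at 3 and 10 µM, its effects differed between times by -0.36 and -0.60, and IL33 was -0.24 at both doses at 24 h. With the stricter filter, IL32 at 3 µM, 6 h was 0.35. With 1 library left out, that value ranged from 0.29 to 0.34, and IL33 at 3 µM, 24 h from -0.41 to -0.27.

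Counts of changed list genes, by edgeR unless named, moved as follows. The stricter filter left 1, 0, 1 and 1 IL-1 family ligands at 3 µM, 6 h, 10 µM, 6 h, 3 µM, 24 h and 10 µM, 24 h, because it kept only 1 of them, and 3 and 4 cytokines at 3 and 10 µM, 24 h. Fitted to only the groups compared, 9, 3 and 11 cytokines changed at 3 µM, 6 h, 10 µM, 6 h and 3 µM, 24 h, and 5 in vehicle over time, and over all genes 3420 and 3753 changed between the doses at 6 and 24 h. DESeq2 called 4 cytokines at 3 µM, 6 h. Proteases numbered 1 at 10 µM, 6 h with the stricter filter, 2 at 3 µM, 24 h with library totals, the stricter filter or only the groups compared, 1 at 10 µM, 24 h with no filter, the replicate block or DESeq2, and 2 in vehicle over time with library totals, the stricter filter, DESeq2 or only the groups compared. The single cytokine in vehicle over time became 0 with RLE factors, no filter or the block (1 of 13 at an unadjusted p under 0.05 in the fit reported, and 1 by DESeq2). With 1 library left out, cytokines ranged from 2 to 4 at 3 µM, 6 h, from 3 to 5 at 3 µM, 24 h, from 5 to 7 at 10 µM, 24 h, and were 0 in vehicle over time. IL-32 partners ranged from 3 to 6 at 10 µM, 6 h and from 0 to 2 in vehicle over time (2 of 9 at an unadjusted p under 0.05). Proteases ranged from 1 to 2 at 10 µM at both times. Signalling genes ranged from 7 to 12 and ligands from 2 to 5 at 10 µM, 24 h. All genes ranged from 2604 to 3579 in vehicle over time and from 654 to 858 between doses at 24 h. The causes were not tested.

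Same-numbered libraries deviated together with r from -0.054 to 0.06 and differently numbered ones from -0.093 to 0.093, so the numbers were not taken as pairs. In comparisons with vehicle, the 2 libraries of a vehicle group give r of equal size and opposite sign by construction. With the replicate block, IL33 was -0.70 and -1.43 at 6 h and -0.37 and -0.38 at 24 h, and IL32 0.33, 0.55, -0.11 and -0.14. Changed genes numbered 13658 at 3 µM, 6 h against 13909 without the block. Vehicle had 2 libraries per time, which limits its spread, and where 1 was left out the other was assumed to vary like the other groups.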
